A study of Mus musculus with 2 samples.

Results

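The cells described here were the Wnt4-positive committing progenitors of the newborn mouse kidney, those that stand between the uncommitted progenitor and the renal vesicle. They were picked out by their own counts of unique molecular identifiers (UMIs, each 1 captured RNA molecule) for 7 genes. A kept barcode was a member with at least 2 UMIs of Wnt4, at least 1 of Eya1, none of Cited1, Fgf8 or Pecam1, at most 1 of Lhx1 and at most 2 of Col3a1. The rule found 226 cells among 9735 kept barcodes. In library 1 it found 159 cells, or 2.88% of kept barcodes (exact 95% binomial interval 2.45 to 3.35), and in library 2 it found 67 cells, or 1.59% (1.24 to 2.02). These intervals cover counting error only. The share was not compared between libraries by a test, since each library is a sample of 1.

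Both libraries came from kidney at postnatal day 0, and both carried the genotype Rbpj c/+ ; Foxd1cre/+, which is 1 conditional allele of Rbpj, the DNA-binding partner of activated Notch receptors, beside a Cre recombinase at Foxd1. Foxd1-driven Cre is known as a tool for the renal stroma, and cells here were nephron progenitors and their descendants. Both libraries share this genotype, so its effect is not a comparison these data offer, and the gene counts do not separate the alleles of Rbpj. The labels do not say whether the libraries were separate animals or pools. The p-values below, save those without a library block, rest on how far population differences disagreed between these 2 libraries. That disagreement may be technical.

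Nephrons form from a cap of mesenchyme over each tip of the ureteric bud. Cap cells that carry Six2 and Cited1 renew themselves, and Wnt9b from the bud sets some of them on the path to a nephron. The cells on that path stop making Cited1, start making Wnt4 and gather under the tip as the pretubular aggregate, and the aggregate then turns into an epithelial ball, the renal vesicle, which makes Lhx1 and Fgf8. Wnt4 is itself a secreted signal needed for this change from mesenchyme to epithelium. Eya1 is a transcriptional co-activator of the cap.

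Barcodes were kept from 3000 UMIs and 500 genes upward, with mitochondrial genes taking no more than 20% of UMIs. There were 5529 in library 1 and 4206 in library 2, with medians of 15016 and 20007.5 UMIs, and 6 barcode sequences occurred in both libraries. Committing cells had a median of 16898 UMIs in library 1 (from 6125 to 81307) and 25303 UMIs in library 2 (from 5497 to 123328). The comparison cells were chosen in the same way. Uncommitted cells met the same rule but for 2 genes, with no Wnt4 and at least 2 UMIs of Cited1, and numbered 204 and 144, with medians of 15936 and 22515.5 UMIs. Vesicle cells had at least 2 UMIs of Wnt4, at least 2 of Lhx1 and at least 1 of Fgf8, with no demand on Eya1. They numbered 58 and 21 and were deeper, at medians of 27685 and 39807 UMIs. Vesicle cells ranged from 3132 to 223353 UMIs in library 1 and from 23123 to 237789 in library 2. Their summed levels therefore lean on the deepest cells. Since the rules count raw UMIs, a deeper cell passes a minimum more easily and a zero less easily.

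Levels below are CPM, the share of a population's summed UMIs that a gene takes, scaled to a common total, given for library 1 and then for library 2 in place of a mean and its error. The genes of the rule are described without a test. Wnt4 (chromosome 4, 137277489 to 137299726, forward strand, GRCm38) lay at 866 and 610.5 CPM in committing cells and at 824 and 707 CPM in vesicle cells. The median committing cell held 14 Wnt4 UMIs in library 1 and 10 in library 2, with quartiles of 7 and 22 and of 4 and 28.5. Most members were therefore well above the minimum, and 17 and 7 cells sat exactly on it. Eya1 (chromosome 1, 14168954 to 14310235, reverse strand) lay at 420 and 472 CPM, below the uncommitted cells at 632 and 849 CPM and above the vesicle cells at 53.6 and 30.8 CPM. Lhx1, a transcription factor of the vesicle, reached 1134 and 1064 CPM in vesicle cells against 2.89 and 4.10 CPM in committing cells.

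The edges of the rule were populated unevenly. Just outside the Wnt4 minimum, at 1 UMI, lay 20 and 15 cells, and their Pax2 level of 481 and 354 CPM was under that of the members with 2 Wnt4 UMIs, at 877 and 711 CPM. Markers of another cell type, as defined below, were carried by 5 of the 20 and 10 of the 15 cells outside and by 4 of the 17 and 3 of the 7 inside, and their part in the Pax2 levels was not tested. At no Eya1 UMI lay 86 and 85 cells, of which 60 and 73 carried such markers, and their Six2 level was 4.38 and 2.10 CPM. Cells with 1 Cited1 UMI, 30 and 11 in number, held Six2 at 105 and 91.2 CPM, above the members at 81.5 and 62.4 CPM. Only 2 and 4 cells were left out for 1 UMI of Fgf8, and 7 and 2 for 2 UMIs of Lhx1.

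The label was checked against genes that the rule did not use. Six2, the transcription factor that keeps cap cells uncommitted (chromosome 17, 85684277 to 85688274, reverse strand), lay at 81.5 and 62.4 CPM. Pax2, a transcription factor of the whole early nephron, lay at 1097 and 1102 CPM. The bud and tubule marker Epcam stood low, and after each cell was thinned to 3000 UMIs it was seen in 3.14% and 5.97% of committing cells. That is at or below the 9.36% and 13.7% in barcodes with endothelial markers, which served as the background of free RNA. These held at least 3 UMIs over endothelial markers other than Pecam1 and none of Wnt4. They numbered 1047 and 1019, at medians of 12797 and 16925 UMIs. Uncommitted cells showed Epcam less often than this set, at 7.35% and 6.25%. The set was not cleared of other cell types, and whether it held Epcam RNA of its own was not tested. Pax2 was seen in 89.3% (95% interval 83.4 to 93.6) and 82.1% (70.8 to 90.4) of thinned committing cells against a background of 7.64% and 8.44%. Bmper, which encodes a secreted modulator of BMP signals, was seen in 62.9% (54.9 to 70.4) and 73.1% (60.9 to 83.2) against 1.53% and 1.28%. Six2 was seen in 25.2% (18.6 to 32.6) and 17.9% (9.61 to 29.2) against 0.764% and 1.37%. Without thinning, the mean over libraries was 98.9% of cells for Pax2, 85.9% for Bmper and 71.0% for Six2. The cells thus had the RNAs of the Wnt4-positive nephron lineage; the files give no positions, so their place in an aggregate was not measured.

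Markers of other cell types were sparse in most members and high in a few. In library 1, 12 of 159 members, and in library 2, 7 of 67, drew more than 0.1% of their UMIs from the markers of 1 other cell type, against 8 of 204 and 1 of 144 uncommitted cells and 1 and 1 vesicle cells. By type, the ureteric bud and collecting duct list passed that limit in 4 and 1 members, the podocyte list in 4 and 3, the intercalated list in 3 and 1, the proximal tubule list in 1 and 2, the loop and distal list in 1 and 1, the mural list in 2 and 0 and the immune list in 0 and 1. Neither the stromal nor the endothelial list passed it in any member. The rule's own limits on Col3a1 and Pecam1 select against both of these types. Summed over 8 collecting duct markers the level was 283 and 147 CPM in committing cells against 71.0 and 62.2 CPM in uncommitted and 168 and 38.1 CPM in vesicle cells, with none of the markers at 0 in committing cells. The 6 podocyte markers summed to 166 and 508 CPM, against 42.8 and 19.3 CPM in uncommitted and 24.3 and 142 CPM in vesicle cells, again with none at 0. The 8 proximal tubule markers summed to 204 and 358 CPM against 65.3 and 42.9 CPM in uncommitted cells, and the 5 intercalated markers to 127 and 82.5 CPM against 4.92 and 7.60 CPM. The 6 loop and distal markers went opposite ways in the libraries, at 75.4 and 137 CPM in committing against 282 and 21.7 CPM in uncommitted cells. The 8 mural markers summed to 52.3 and 85.2 CPM against 25.9 and 46.2 CPM, and the 8 immune markers to 10.7 and 23.2 CPM against 6.74 and 3.26 CPM. Stromal markers, 7 in number, stood at 26.6 and 38.3 CPM, below the uncommitted cells at 56.2 and 44.8 CPM. The 7 erythroid genes summed to 1125 CPM in library 1 and 78.4 CPM in library 2, against 729 and 86.1 CPM in the uncommitted cells of the same libraries. A doublet caller marked 3 and 3 members, and all of these were among the 19 members with markers of another type. Every comparison below is therefore also given without all such cells, a setting chosen after the data were seen.

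**Figure D1:**
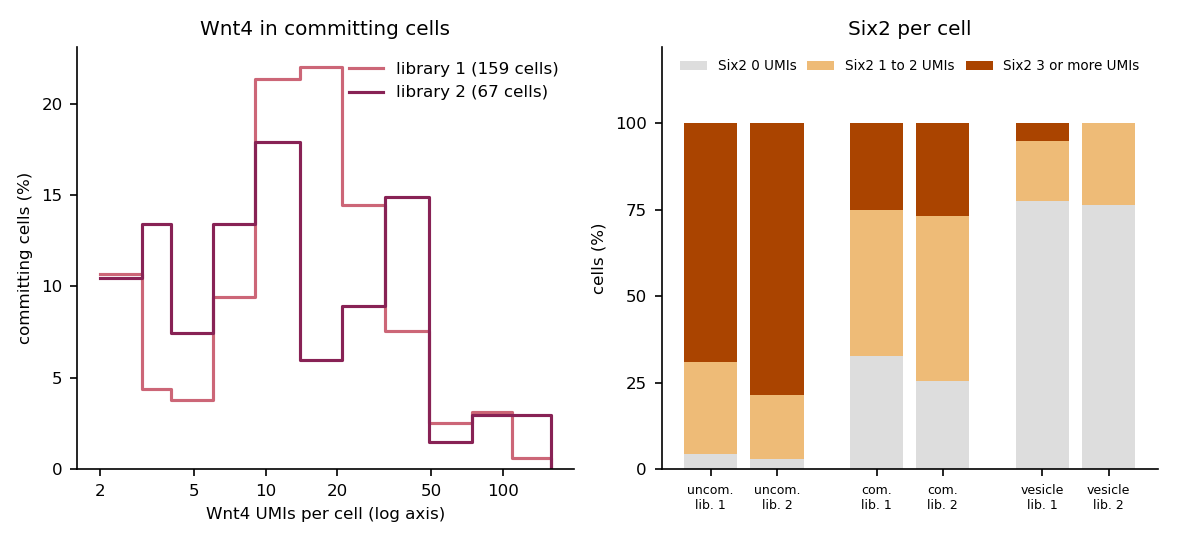
Left, share of committing cells (%) by Wnt4 UMIs per cell (log axis) in library 1 (159 cells) and library 2 (67 cells). Right, share of uncommitted, committing and vesicle cells (%) with 0, 1 to 2, or 3 or more Six2 UMIs in each library; committing cells lay between the others, with 25.2% and 26.9% at 3 or more.

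Six2 graded across the 3 populations within each library, as the plot of UMIs per cell shows. Six2 at 3 or more UMIs was held by 69.1% and 78.5% of uncommitted, 25.2% and 26.9% of committing and 5.17% of vesicle cells in library 1 and 0 of 21 in library 2, where the floor of 3 counts allows a share of up to 14.3%. No Six2 UMI was held by 4.41% and 2.78% of uncommitted, 32.7% and 25.4% of committing and 77.6% and 76.2% of vesicle cells. These shares are not thinned, and the vesicle cells, with the highest share at 0, were the deepest.

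Against the uncommitted cells, the committing cells had higher levels of BMP response genes, of early nephron genes and of several Wnt targets, and lower levels of cap genes and of several FGF genes. Of 12815 genes tested with edgeR's quasi-likelihood test and Benjamini-Hochberg adjustment at 0.05, 1688 (13.2%) passed, 1062 higher (8.29%) and 626 lower (4.88%) in committing cells, and 3176 had an unadjusted p under 0.05. All 1688 had the same sign of difference in both libraries. Where sums are said below not to overlap, this describes genes already called, and the share over all tested genes was not counted. The median log2 fold change over all tested genes was -0.01. Without the cells with other markers 1641 genes passed, 902 higher and 739 lower, and 1205 of the 1688 were among them. With DESeq2 837 genes passed. The populations were picked by Wnt4 and Cited1, so genes that go with those 2 were bound to differ, and the counts describe how much of the transcriptome did so.

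Cap genes were mostly lower. Of 18 tested genes of the progenitor identity list, 11 were lower and 2 higher, with a median log2 fold change of -0.77. Six2 was at 241 and 244 CPM in uncommitted cells against the 81.5 and 62.4 CPM of committing cells, which is a log2 fold change of -1.81 (SE 0.14, adjusted p = 7.8e-05). Both committing sums lay well below both uncommitted sums. Meox1, a homeobox gene of the cap, gave 3 UMIs over all committing cells against 46.9 and 75.2 CPM in uncommitted cells, 114-fold apart (95% interval of the counts 38.9 to 557). Crym, which encodes a thyroid hormone-binding protein, was at 17.6 and 6.38 CPM against 173 and 149.6 CPM (-3.74, SE 0.22, adjusted p = 2.0e-05). Itga8, the integrin by which cap cells hold the bud's matrix and keep Gdnf on, was at 137 and 127 CPM against 545 and 581 CPM (-2.16, SE 0.28, adjusted p = 0.0011). Robo2, a guidance receptor that limits where the bud forms, was at 609.6 and 984.5 CPM against 3259 and 3540 CPM. In each of these genes both committing sums lay below both uncommitted sums. Some cap genes did not pass the test. Cdh11, a mesenchymal cadherin, stood at 589.9 and 621 CPM against 681 and 644 CPM (-0.19, SE 0.11, adjusted p = 0.34), and Osr1, a transcription factor of the early kidney field, at 39.3 and 26.4 CPM against 59.1 and 33.1 CPM (-0.53, SE 0.17, adjusted p = 0.082). The genes that went against the list were Pax2 (0.78, SE 0.07, adjusted p = 0.00013) and Tmem100, a membrane protein, at 133.5 and 132 CPM against 50.01 and 51.05 CPM (1.34, SE 0.12, adjusted p = 0.00011).

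**Figure D2:**
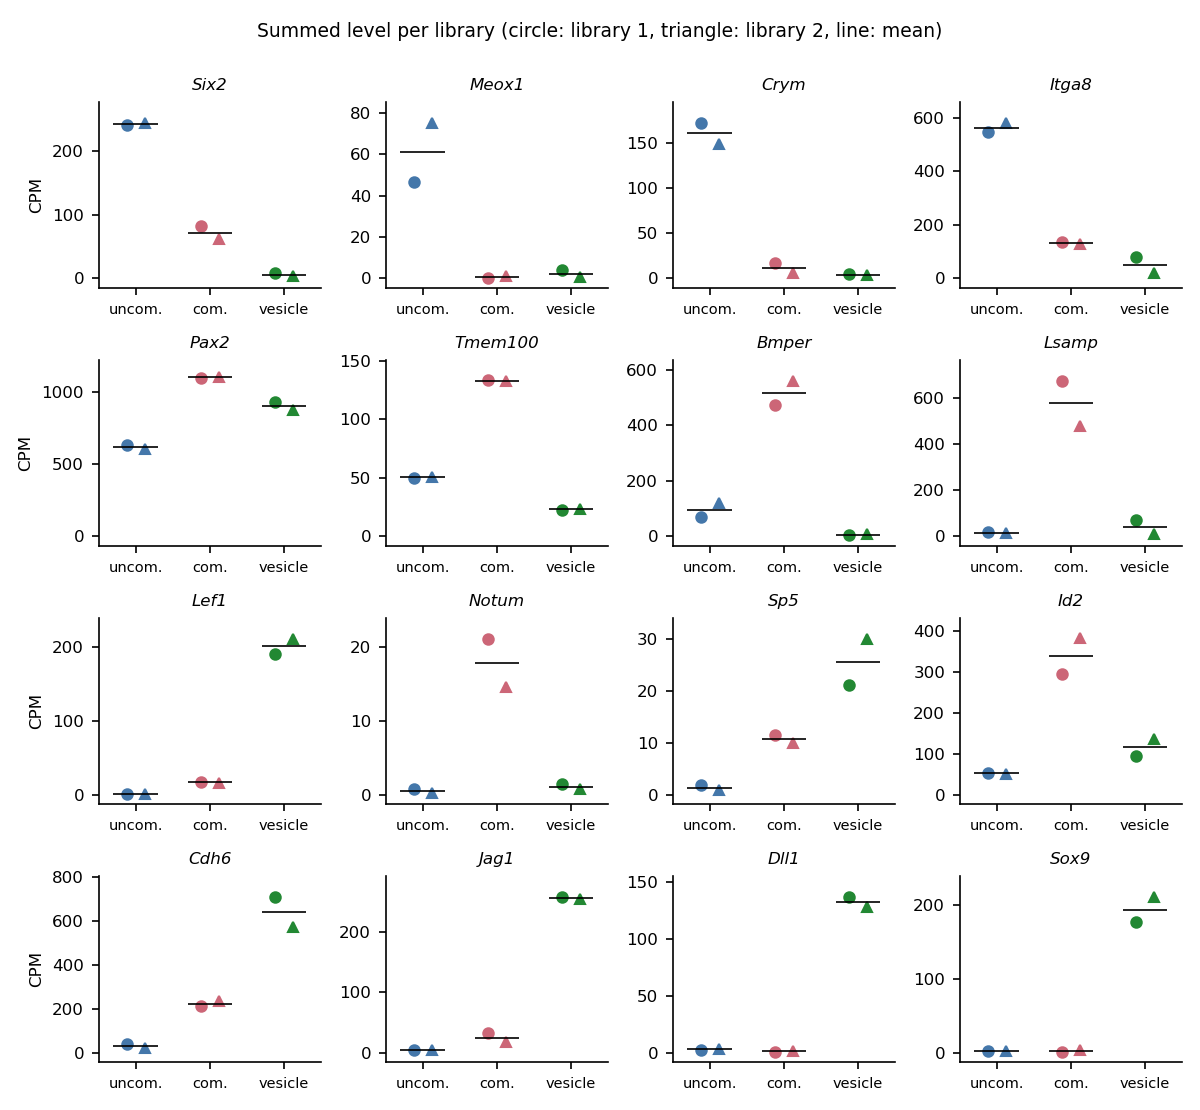
CPM of 16 genes in uncommitted (uncom.), committing (com.) and vesicle cells. Circles are library 1, triangles library 2 and lines the mean of both, on linear axes; Bmper, Lsamp, Tmem100, Notum and Id2 peak in committing cells, while Jag1, Dll1, Sox9 and Lef1 are high in vesicle cells.

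Early nephron genes were higher in part. Of 20 tested genes of the early commitment list 12 were higher and none lower, with a median log2 fold change of 1.64. Without the cells with other markers 10 were higher and 2 lower: Hnf4a lost its call, and the Notch genes Dll1 and Lfng were then lower. Bmper (chromosome 9, 23223076 to 23485200, forward strand) was at 475 and 559.5 CPM against 69.7 and 119.8 CPM (2.44, SE 0.15, adjusted p = 2.0e-05). Cdh6, a cadherin of the early nephron, was at 213 and 233 CPM against 39.4 and 19.3 CPM (2.89, SE 0.22, adjusted p = 6.3e-05). Osr2, a transcription factor of the forming tubule, was at 28.3 and 27.8 CPM against 3.11 and 1.09 CPM, and Npy, a neuropeptide gene, at 18.8 and 18.2 CPM against 2.07 and 0 CPM. Pax8, the partner of Pax2 in nephron formation, was at 94.2 and 138 CPM against 46.6 and 44.8 CPM (1.26, SE 0.15, adjusted p = 0.0006). Ccnd1, which encodes cyclin D1, was at 82.1 and 118 CPM against 34.2 and 34.5 CPM (1.46, SE 0.13, adjusted p = 0.00011). In all of these the libraries of the populations did not overlap. The log2 fold change of Bmper was 2.63, of Cdh6 3.07, of Pax8 1.14 and of Ccnd1 1.68 without the cells with other markers.

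Canonical Wnt signalling acts through beta-catenin and the TCF and LEF factors, and its targets include its own inhibitors. Of 29 tested genes of the Wnt list 12 were higher and 4 lower, with a median log2 fold change of 0.06. Among those higher, Wnt9b, the bud's own ligand, came to 62 UMIs, of which 61 were in the members without Six2. DESeq2 did not call it, it was no longer tested once the cells with other markers were left out, and Rnf43 then lost its call. Notum, a secreted enzyme that inactivates Wnt proteins, was at 21.1 and 14.6 CPM against 0.777 and 0.272 CPM (4.93, SE 0.47, adjusted p = 0.0002). Lef1, a partner of beta-catenin, was at 17.05 and 15.9 CPM against 0.518 and 0.543 CPM (4.82, SE 0.36, adjusted p = 5.6e-05), and stayed far below vesicle cells at 191 and 211 CPM. Sp5, a transcription factor and Wnt target, was at 11.6 and 10.0 CPM against 1.81 and 0.815 CPM (2.95, SE 0.46, adjusted p = 0.003). The feedback inhibitors Nkd1, at 51.4 and 48.3 CPM against 15.8 and 17.4 CPM, and Frzb, at 57.2 and 19.1 CPM against 5.70 and 5.43 CPM, were also higher. Axin2, the target most often used as a readout of the pathway, was not: it stood at 22.8 and 10.5 CPM against 35.0 and 16.6 CPM (-0.69, SE 0.21, adjusted p = 0.068). Lower were Rspo3 and Rspo1, secreted amplifiers of Wnt signals, and the receptor Fzd2. Rspo3 was at 21.1 and 13.2 CPM against 138 and 172 CPM (-3.17, SE 0.28, adjusted p = 0.00013). Rspo1 was at 109 and 48.3 CPM against 216 and 202 CPM, and Fzd2 at 65.6 and 73.8 CPM against 195 and 216 CPM. Rspo3 and Mycn lost their call in at least 1 alternative setting.

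Promoters of the higher genes were read for the word of the Wnt pathway's factors, and those of Sp5, a Wnt target, and Bmper, of the BMP group, are shown as cases with and without a match. The sequences are the 250 bases before the RefSeq start on GRCm38.p6, both on the forward strand, with chr2:70474673-70474922 for Sp5 and chr9:23222826-23223075 for Bmper. Capitals mark the word CTTTGAA and its variants CTTTGAT and CTTTGTT as well as CTTTGTA, letters that TCF and LEF factors are known to bind, on either strand.
Sp5: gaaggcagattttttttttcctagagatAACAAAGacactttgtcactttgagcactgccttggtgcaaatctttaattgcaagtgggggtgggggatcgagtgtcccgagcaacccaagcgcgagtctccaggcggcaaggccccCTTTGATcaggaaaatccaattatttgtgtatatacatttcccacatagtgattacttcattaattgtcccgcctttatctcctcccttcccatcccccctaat
Bmper: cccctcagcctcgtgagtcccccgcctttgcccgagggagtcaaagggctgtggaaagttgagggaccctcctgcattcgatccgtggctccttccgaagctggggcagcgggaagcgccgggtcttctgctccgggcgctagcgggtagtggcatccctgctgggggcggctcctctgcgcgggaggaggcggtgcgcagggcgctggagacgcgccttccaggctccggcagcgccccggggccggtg
The Sp5 promoter held CTTTGTT on the reverse strand at 222 to 216 bases before the start and CTTTGAT on the forward strand at 104 to 98 bases before it. The Bmper window held none of the 4 words. Of all 32851 promoters of the table, 4874 (14.8%) held at least 1. Of the 12 Wnt list genes that were higher, 9 had 13 promoters in the table, and 3 of these held a match, those of Lef1, Mycn and Sp5; Kremen1, Notum and Znrf3 had no entry. Of the 12 commitment genes 8 had 10 promoters, and 1 held a match, that of Cdh6. Of the 11 BMP list genes 7 had 9 promoters, and the 3 with a match all belonged to Bmpr1b. A match is a word in a window and not a bound site, and these windows hold no distal elements.

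BMP ligands act through SMAD proteins, which switch on the Id genes and their own inhibitors Smad6 and Smad7. Of 17 tested genes 11 were higher and 1 lower, with a median log2 fold change of 1.64, and the same 12 genes passed without the cells with other markers. Id2 was at 295 and 383 CPM against 52.9 and 51.3 CPM (2.63, SE 0.14, adjusted p = 1.9e-05). Id1 was at 115 and 112.5 CPM against 21.2 and 20.6 CPM (2.39, SE 0.14), and Id4 at 51.7 and 51.0 CPM against 4.66 and 4.62 CPM (3.4, SE 0.23). Id3 was at 568 and 506 CPM against 203 and 198.5 CPM (1.37, SE 0.10). In all 4 Id genes both committing sums lay above both uncommitted sums. Smad6 was at 109.8 and 99.3 CPM against 31.9 and 32.9 CPM, and Smad7 at 172 and 118 CPM against 54.9 and 51.6 CPM. Among the ligands, Bmp4 was at 39.6 and 48.7 CPM against 11.7 and 2.72 CPM (2.56, SE 0.40, adjusted p = 0.0029), while Bmp7, the ligand that keeps cap cells alive and dividing, was at 19.7 and 22.8 CPM against 56.5 and 49.2 CPM (-1.38, SE 0.17, adjusted p = 0.0009). The secreted antagonist Fst was at 20.5 and 11.8 CPM against 1.81 and 0 CPM (4.10, SE 0.62, adjusted p = 0.0027). Bambi, a decoy receptor, was at 15.3 and 20.5 CPM against 3.11 and 3.26 CPM. The receptor Bmpr1b lost its call in at least 1 alternative setting (adjusted p up to 0.063).

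FGF signals keep cap cells alive, and Etv4, Etv5, Dusp6 and the Sprouty genes are known targets. Of 19 tested genes of the FGF list 10 were lower and 2 higher, with a median log2 fold change of -0.50. Fgf1, a ligand, was at 6.65 and 3.19 CPM against 139 and 147 CPM (-4.83, SE 0.31, adjusted p = 2.6e-05). Etv4 was at 14.2 and 17.3 CPM against 77.7 and 89.3 CPM (-2.47, SE 0.15, adjusted p = 2.3e-05), and Etv5 at 13.6 and 11.8 CPM against 44.3 and 42.6 CPM (-1.82, SE 0.18, adjusted p = 0.00023). The receptor Fgfr1 was at 115 and 132 CPM against 264 and 295 CPM (-1.23, SE 0.10). Spry1, an inhibitor within the cell, went the other way at 78.3 and 68.3 CPM against 23.3 and 20.9 CPM (1.67, SE 0.15, adjusted p = 0.00014), as did the receptor Fgfr3 at 6.36 and 12.3 CPM against 1.04 and 0.815 CPM. The count lower was 8 without the cells with other markers, 7 of 18 among barcodes of 10000 to 50000 UMIs, and 5 with DESeq2, with 2 higher in each.

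Notch genes were split, with 4 of 21 higher and 4 lower and a median log2 fold change of -0.11. Jag1, a ligand, was at 32.4 and 16.9 CPM against 3.63 and 3.53 CPM (2.76, SE 0.33, adjusted p = 0.00066). The receptor Notch2 was at 112 and 150.3 CPM against 53.6 and 49.97 CPM (1.27, SE 0.15), and Notch1 at 8.09 and 5.47 CPM against 15.5 and 20.4 CPM (-1.37, SE 0.25). The target genes differed in direction. Hes1 was at 64.5 and 32.8 CPM against 189 and 115 CPM (-1.70, SE 0.12, adjusted p = 5.1e-05), Hey1 at 17.6 and 18.7 CPM against 5.44 and 6.25 CPM (1.58, SE 0.22, adjusted p = 0.0017), and Hey2 came to 38 UMIs against 3, a ratio of 16.9 (5.36 to 85.5). Hes5 was at 0 in both populations. Rbpj, the gene of the conditional allele, was at 113 and 118 CPM against 105 and 102 CPM (0.11, SE 0.11, adjusted p = 0.62). Foxd1 was at 17.9 and 22.8 CPM against 37.1 and 41.5 CPM (-1.01, SE 0.23, adjusted p = 0.019, up to 0.42 over the alternatives), and free RNA held it at 12.4 and 19.9 CPM. Whether these reads came from within the cells was not tested.

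Of 32 tested genes of the epithelial junction, polarity and basement membrane list 14 were higher and none lower, with a median log2 fold change of 1.11. Without the cells with other markers, 5 of 30 were higher and 4 lower, and the median was -0.09. Epcam was at 68.5 and 51.0 CPM against 37.6 and 16.3 CPM (1.11, SE 0.22, adjusted p = 0.011), and at a log2 fold change of -0.92 without those cells (adjusted p = 0.036). After thinning, with all members, it was seen in 3.14% and 5.97% of committing and 7.35% and 6.25% of uncommitted cells. Both lay under the 9.36% and 13.7% of the endothelial background. Whether either Epcam call came from RNA made in the cells was not tested. The keratins Krt8 and Krt18, the tight junction genes Cldn7 and Ocln and the epithelial factor Grhl2 lost their call, and Krt19, itself a collecting duct marker used to leave cells out, was no longer tested. The 5 that held were Cdh6, the desmosome gene Dsp and 3 laminin chains of the basement membrane. Lamc1 was at 158 and 179 CPM against 70.5 and 58.9 CPM (1.33, SE 0.13, adjusted p = 0.00025), Lamb1 at 112 and 91.1 CPM against 56.0 and 36.7 CPM (1.09, SE 0.13), and Lama1 at 21.4 and 29.6 CPM against 12.2 and 7.60 CPM (1.27, SE 0.25). Cdh2, the cadherin of mesenchyme and early tubule, stood at 299 and 284 CPM against 246 and 298 CPM (0.06, SE 0.13, adjusted p = 0.84).

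**Figure D3:**
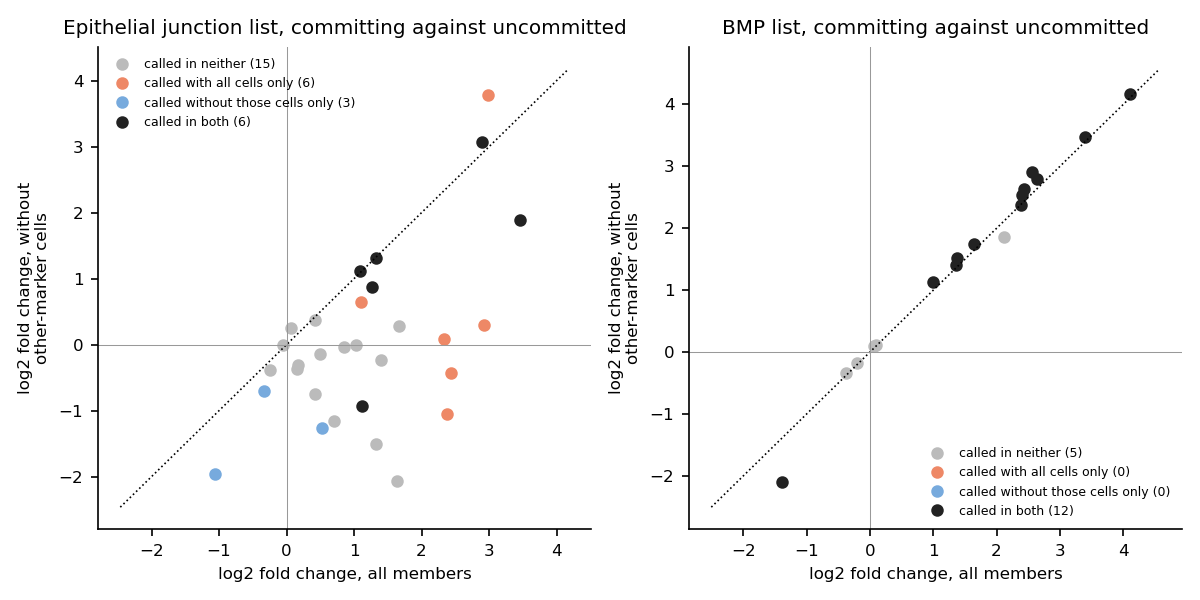
Log2 fold change of committing against uncommitted cells with all members (horizontal axis) and without the cells that carry markers of another type (vertical axis), 1 point per gene; the dotted line marks equal values. Left, 30 junction genes, many far below the line; the 6 points called in both include Epcam, called higher in one and lower in the other. Right, 17 BMP genes, which lie along the line.

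Mesenchymal genes went both ways, with 4 of 14 higher and 4 lower and a median log2 fold change of 0.04. Snai2, a repressor known from epithelial to mesenchymal change, was at 39.3 and 35.5 CPM against 8.81 and 12.2 CPM (1.80, SE 0.24, adjusted p = 0.0013). Fn1, which encodes fibronectin, was at 24.6 and 35.1 CPM against 4.66 and 6.79 CPM (2.33, SE 0.21, adjusted p = 0.00015). Vim, the intermediate filament of mesenchyme, stood at 168 and 189.5 CPM against 184 and 206 CPM (-0.18, SE 0.10, adjusted p = 0.3; -0.59 and 0.013 without the cells with other markers). Of 7 growth timing genes, H19, an imprinted non-coding RNA, was at 385 and 699.8 CPM against 52.1 and 126 CPM (2.60, SE 0.14, adjusted p = 1.9e-05), and its neighbour Igf2, a fetal growth factor, at 166 and 365 CPM against 55.4 and 135 CPM (1.44, SE 0.12, adjusted p = 8.1e-05). In both genes library 2 was above library 1 in either population. Igf2 lost its call without the library block (adjusted p up to 0.10). Hmga2, a chromatin protein of fetal stem cells, was lower at 264.5 and 322 CPM against 552 and 679 CPM (-1.12, SE 0.11, adjusted p = 0.00021). Plagl1, an imprinted regulator, lost its call without the cells with other markers (adjusted p = 0.65).

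Cell cycle genes were called higher in part. Of 20 S phase genes 2 were higher and none lower (median log2 fold change 0.33), and of 20 G2 and M phase genes 5 were higher and none lower (0.65). Over all tested genes 8.29% were called higher, a share near that of the S phase list and below that of the G2 and M phase list. The summed level of the S phase list was 1153 and 1243 CPM against 881 and 1040 CPM, and that of the G2 and M phase list 1821 and 664 CPM against 1023 and 505 CPM. The libraries differed more in G2 and M genes than the populations did. Top2a, a topoisomerase of dividing cells, was at 351 and 153.5 CPM against 150.3 and 96.4 CPM (0.94, SE 0.18, adjusted p = 0.01). Without the cells with other markers 13 S phase and 10 G2 and M phase genes were higher, while DESeq2 called 0 and 1, so these counts depended on the setting. Of 9 cell cycle inhibitors 1 was higher and 2 lower, among them Gas1, a growth arrest gene and hedgehog co-receptor, at 136 and 135 CPM against 413 and 406 CPM (-1.65, SE 0.11). Of 20 glycolysis genes none was higher and 3 were lower, and of 9 stress genes none was higher and 3 were lower. Those lower were the lactate carrier Slc16a1 (-0.98, SE 0.11, adjusted p = 0.0006), Hk1 and Tpi1, and the early response genes Egr1, Ier2 and Jund.

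**Figure D4:**
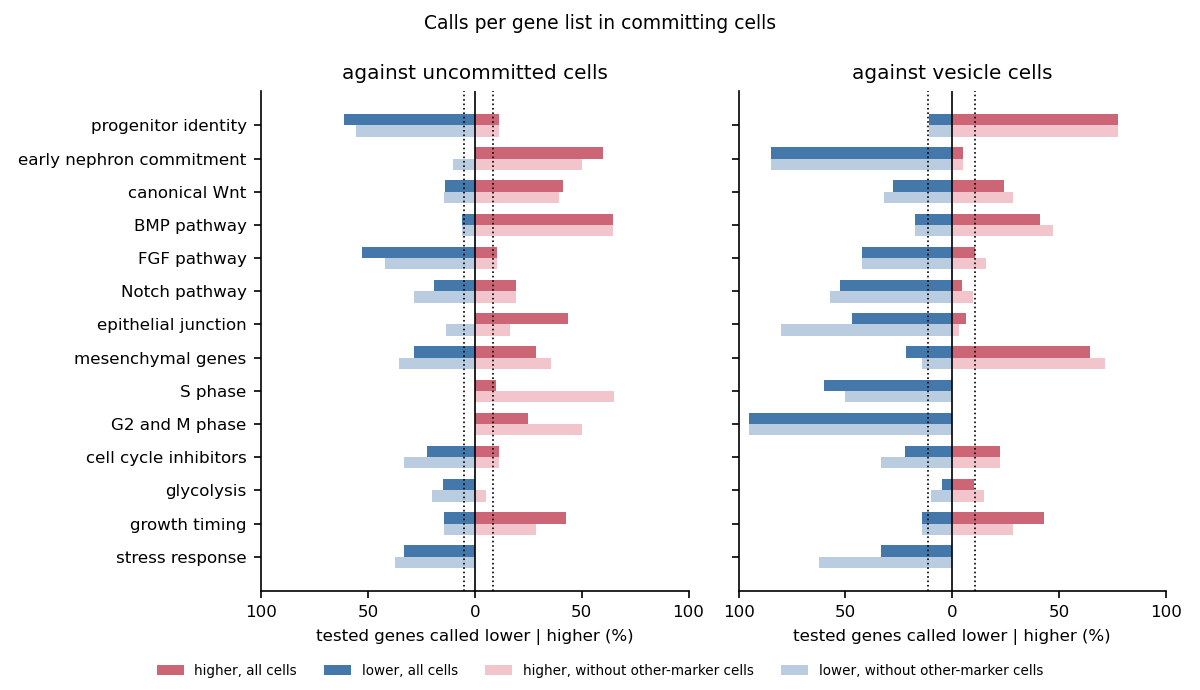
Share of tested genes of each list called higher (right, red) or lower (left, blue) in committing cells, in percent, against uncommitted (left panel) and vesicle cells (right panel); pale bars leave out cells with markers of another type. Dotted lines give the shares over all tested genes, 8.29% and 4.88% on the left and 10.6% and 11.5% on the right.

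Genes outside the lists stood among the largest differences. Lsamp, a cell adhesion molecule known from neurons (chromosome 16, 39984361 to 42181679, forward strand), was at 673 and 478 CPM against 20.2 and 14.1 CPM (5.04, SE 0.33, adjusted p = 3.1e-05), and vesicle cells held 71.2 and 11.0 CPM. Both committing sums of Lsamp lay above all other sums. Sdk2, another adhesion molecule, was at 103.5 and 102 CPM against 5.44 and 4.34 CPM (4.34, SE 0.28). Lin7a, a scaffold protein, was at 33.5 and 25.1 CPM against 0.259 and 0.815 CPM (5.63, SE 0.42), Sorcs3, a sorting receptor, at 46.8 and 44.6 CPM against 2.33 and 1.36 CPM (4.55, SE 0.31), and Tmem132c and Pmp22 rose by 4.94 and 4.43 on the log2 scale. All 6 were called in every alternative setting. Corin, a protease, gave 203 UMIs against 2. Without the cells with other markers its level in library 1 fell from 23.4 to 6.07 CPM, and it was still called (log2 fold change 6.21, edgeR adjusted p = 0.00036). Kcnh7 and Atp6v1g3, the latter an intercalated marker used to leave cells out, were then no longer tested. At the other end, beside Meox1, Fgf1 and Crym, were Gfra1, the co-receptor for Gdnf, at 16.8 and 7.29 CPM against 179 and 208 CPM (-3.98, SE 0.25, adjusted p = 2.3e-05), the microtubule gene Dcx at 3.18 and 3.64 CPM against 61.7 and 60.01 CPM (-4.20, SE 0.24), Pnmt, which makes adrenaline, at 3.76 and 1.37 CPM against 52.9 and 52.1 CPM (-4.28, SE 0.30), and Ajap1, an adherens junction protein, at 2.89 and 2.73 CPM against 43.0 and 74.9 CPM (-4.33, SE 0.32). In each of these both uncommitted sums lay above both committing sums.

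Against vesicle cells, the committing cells were higher in cap and mesenchymal genes and in Bmper, and lower in Notch, junction and dividing-cell genes. Of 12815 tested genes 2836 (22.1%) passed, 1357 higher (10.6%) and 1479 lower (11.5%) in committing cells, with 4489 at an unadjusted p under 0.05 and a median log2 fold change of 0.01. Without the cells with other markers 3253 passed, of which 2477 were among the 2836, and with DESeq2 1303 passed. This comparison uses the same committing sums as that against uncommitted cells, and its deeper and fewer vesicle cells, 58 and 21, carry the libraries' error.

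Of 18 cap genes 14 were higher and 2 lower in committing cells, at a median log2 fold change of 1.58. Six2 was at 8.58 and 3.67 CPM in vesicle cells (3.45, SE 0.24, adjusted p = 2.9e-05), and Cdh11 at 61.9 and 80.0 CPM (3.15, SE 0.13, adjusted p = 2.3e-06). Osr1 gave 194 UMIs in committing and 2 in vesicle cells, a ratio of 71.4 (19.5 to 593). Tmem100 was at 22.5 and 23.5 CPM (2.57, SE 0.14). Cdh11 and Osr1 thus separated committing from vesicle cells and did not pass the test between uncommitted and committing cells. Meox1 and Crym, by contrast, were lower in committing than in uncommitted cells. Exceptions within the list were Sall1, a zinc finger factor of the nephron lineage, at 92.8 and 91.6 CPM in committing and 212 and 203 CPM in vesicle cells (-1.14, SE 0.10, adjusted p = 0.00011), and Uncx, a homeobox gene, at 143 and 138 CPM in committing and 559 and 513 CPM in vesicle cells. Both were lower in committing cells than in either neighbour population.

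Of 20 commitment genes 17 were lower and 1 higher in committing cells, at a median log2 fold change of -3.42 (-3.4 with genes at 0 set to their bound). Ccnd1 was at 1701 and 2007 CPM in vesicle cells (-4.20, SE 0.12, adjusted p = 6.6e-07), Pax8 at 550.0 and 615 CPM (-2.32, SE 0.13, adjusted p = 1.1e-05) and Cdh6 at 709 and 573 CPM (-1.49, SE 0.19, adjusted p = 0.00067). Emx2, a homeobox gene of the tubule, was at 240 and 191 CPM in vesicle against 19.7 and 14.6 CPM in committing cells. For these genes the committing level lay between its neighbours. Others did not pass the test against uncommitted cells. Sox9, a transcription factor of the vesicle, was at 2.33 and 2.72 CPM in uncommitted cells. It was at 0.578 and 3.19 CPM in committing against 177 and 210.5 CPM in vesicle cells (-6.82, SE 0.29, adjusted p = 2.3e-06). Bmp2, which marks the vesicle, was at 1.45 and 2.73 CPM against 91.6 and 69.7 CPM (-5.33, SE 0.38, adjusted p = 3.0e-05). Bmper was the exception, at 3.93 and 8.80 CPM in vesicle cells (6.5, SE 0.23, adjusted p = 1.7e-06).

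Of 21 Notch genes 11 were lower and 1 higher, at a median log2 fold change of -1.52. Dll1, the ligand of the vesicle, was at 0.867 and 1.37 CPM in committing against 137 and 128 CPM in vesicle cells (-6.88, SE 0.26, adjusted p = 2.3e-06). Hes5, a target gene, gave no UMI in 226 committing cells and 116 and 61.6 CPM in vesicle cells, and was at least 185-fold lower in committing cells with a floor of 3 UMIs over both libraries (adjusted p = 2.1e-05 with edgeR's quasi-likelihood test, 0.19 with DESeq2). Notch1 was at 164 and 185 CPM (-4.58, SE 0.21, adjusted p = 2.9e-06), Jag1 at 257 and 254.5 CPM (-3.30, SE 0.20) and Lfng, a modifier of Notch receptors, at 66.2 and 62.3 CPM in vesicle cells (-4.20, SE 0.31). Hes1 was lower in committing cells than in both neighbours, at 175 and 111 CPM in vesicle cells (-1.52, SE 0.13, adjusted p = 7.8e-05). Rbpj was the gene that was higher, by 0.39 (SE 0.12, adjusted p = 0.044, up to 0.38 over the alternatives).

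Wnt genes divided, with 7 of 29 higher and 8 lower and a median log2 fold change of 0.05. Notum was at 1.43 and 0.733 CPM in vesicle cells (3.99, SE 0.47, adjusted p = 0.0005), and Frzb at 12.5 and 2.93 CPM (2.26, SE 0.36, adjusted p = 0.0025). Both were thus highest in committing cells. Lower in committing cells were Lef1 (-3.56, SE 0.15, adjusted p = 2.3e-06), Sfrp2, a secreted Wnt inhibitor at 14.2 and 47.4 CPM against 343 and 556 CPM (-3.99, SE 0.20), and Lgr5, the R-spondin receptor, at 4.62 and 1.82 CPM against 111 and 125 CPM (-5.03, SE 0.30, adjusted p = 1.2e-05). Dkk1, a secreted inhibitor, came to 3 UMIs against 307, a ratio of 139 (47.2 to 678). The levels of Nkd1 (0.31, SE 0.17, adjusted p = 0.24) and Axin2 (0.37, SE 0.25, adjusted p = 0.32) did not pass the test.

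Of 17 BMP genes 7 were higher and 3 lower, at a median of 0.30. Id2 was at 95.5 and 136 CPM in vesicle cells (1.59, SE 0.14, adjusted p = 9.1e-05), Smad6 at 27.2 and 28.6 CPM (1.95, SE 0.15, adjusted p = 5.4e-05), and Fst at 1.43 and 0 CPM (4.30, SE 0.73, adjusted p = 0.0033). Id1, at 99.8 and 114 CPM, and Id4, at 47.9 and 31.5 CPM, did not pass the test against vesicle cells (adjusted p = 0.47 and 0.19). Bmp7 was at 91.6 and 102 CPM (-2.16, SE 0.17, adjusted p = 5.7e-05), so committing cells had the lowest level of the 3 populations. FGF genes lower in committing cells than in both neighbours were Etv4, Etv5, Dusp6, Fgfr1, Spred2 and Il17rd, of which Spred2 lost its call against uncommitted cells with DESeq2 and Il17rd in several settings. Etv4 was at 84.0 and 85.8 CPM in vesicle cells (-2.42, SE 0.16, adjusted p = 1.9e-05), and Etv5 at 89.4 and 71.1 CPM (-2.63, SE 0.18, adjusted p = 2.1e-05). Of 19 FGF genes 8 were lower and 2 higher. Fgf1 stayed low in vesicle cells, at 8.23 and 1.47 CPM (-0.12, SE 0.53, adjusted p = 0.9).

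Of 32 junction genes 15 were lower and 2 higher, at a median of -1.0, and without the cells with other markers 24 of 30 were lower and 1 higher, at -2.37. Lama1 was at 452 and 400 CPM in vesicle cells (-4.07, SE 0.18, adjusted p = 2.9e-06), Itga6, a laminin receptor, at 126 and 129 CPM against 23.1 and 36.0 CPM (-2.12, SE 0.19), and Epcam at 241 and 211 CPM (-1.90, SE 0.20, adjusted p = 0.00023; -4.30 without those cells). Cdh3, a cadherin, was at 5.78 and 6.38 CPM against 59.4 and 30.8 CPM (-2.91, SE 0.37). Of 14 mesenchymal genes 9 were higher and 3 lower. Snai2 was at 1.43 and 2.93 CPM in vesicle cells (4.27, SE 0.37, adjusted p = 8.5e-05) and Vim at 23.2 and 23.5 CPM (2.94, SE 0.13, adjusted p = 2.7e-06). In these genes, as in Tnc at 54.0 and 64.7 CPM against 8.23 and 11.0 CPM (2.68, SE 0.19), committing cells lay far above both vesicle sums.

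Dividing-cell genes were lower in committing than in vesicle cells. Of 20 G2 and M phase genes 19 were lower (median -1.32), and of 20 S phase genes 12 (median -0.71), with none higher in either list. The summed levels in vesicle cells were 3112 and 2640 CPM for G2 and M phase and 1817 and 2107 CPM for S phase. DESeq2 called 15 and 9 of these genes. Rrm2, an enzyme of DNA precursor synthesis, was at 25.4 and 41.9 CPM against 104 and 143 CPM (-1.88, SE 0.14, adjusted p = 4.7e-05).

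**Figure D5:**
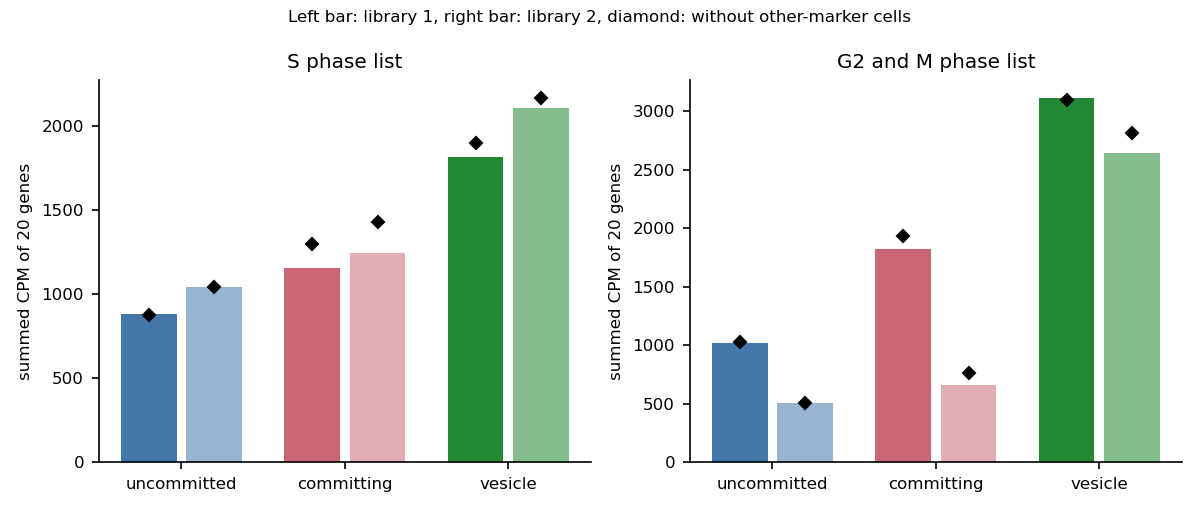
Summed CPM of 20 S phase genes (left) and 20 G2 and M phase genes (right) in uncommitted, committing and vesicle cells; dark bars are library 1, pale bars library 2, and diamonds leave out cells with markers of another type. In each library committing cells lay between the others in both lists.

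Outside the lists, Slc26a7, an anion exchanger (chromosome 4, 14502430 to 14621805, reverse strand), was at 130.4 and 126 CPM in committing, 6.48 and 15.2 CPM in uncommitted and 1.43 and 5.87 CPM in vesicle cells (3.56, SE 0.29, against uncommitted and 5.44, SE 0.41, against vesicle cells). Col9a1, a collagen chain, had a like course, at 68.5 and 74.7 CPM in committing, 9.33 and 15.5 CPM in uncommitted and 1.43 and 2.20 CPM in vesicle cells, and so had Gpr176, an orphan receptor, at 30.1 and 26.9 CPM in committing, 8.03 and 4.62 CPM in uncommitted and 0.715 and 1.47 CPM in vesicle cells. All 3 passed both tests under every alternative. Prr16, at 30.6 and 34.6 CPM, and Il33, a nuclear cytokine at 29.5 and 20.5 CPM, gave no UMI in vesicle cells and were at least 44.6-fold and 36.0-fold higher in committing cells. Cbln4, a secreted synapse organiser at 35.8 and 44.0 CPM in vesicle cells, gave no UMI in committing cells and was at least 72.5-fold lower (0.28 with DESeq2). Col4a3, a basement membrane collagen chain, was among the 10 largest rises with all members and was no longer tested without the cells with other markers.

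Members with and without a Six2 UMI were then compared. The median member held 1 Six2 UMI in library 1 and 2 in library 2. A count of 0 can thus also be Six2 RNA that was missed, and the share of such members was not estimated. The 107 and 50 members with at least 1 Six2 UMI had medians of 17066 and 25960.5 UMIs, and the 52 and 17 without had 16146 and 20848, so the sets were near in depth in library 1 and less so in library 2. Of the members without Six2, 9 of 52 and 6 of 17 carried markers of another cell type, against 3 of 107 and 1 of 50 with Six2. Of 12337 genes 1317 (10.7%) passed, 441 higher (3.57%) and 876 lower (7.1%) with Six2. Without the cells with other markers 59 passed, 13 higher and 46 lower, of which 46 were among the 1317. Most of the split was thus not found without those 19 members. In that setting 43 and 11 members without Six2 remained, with 681996 and 239744 summed UMIs against 1047001 and 523260 before. How much of the fall in calls came from the smaller counts was not tested. Aqp2, the collecting duct water channel, stood at 569 and 304 CPM in members without Six2. It stood at 4.40 and 16.7 CPM in those of them that remained. Aqp2 is itself a marker used to leave cells out, so its fall was bound to follow.

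Among the lists, 20 of 32 junction genes were lower with Six2, and 2, Lama1 and Dsp, held without the cells with other markers. Of 17 cap genes 10 were higher with Six2, and Itga8 and no other of these held. Itga8 was at 182 and 161 CPM with and 35.3 and 17.2 CPM without Six2 (2.73, SE 0.45, adjusted p = 0.0066; 1.89 without those cells). Il33 was at 40.6 and 26.9 CPM with and 3.82 and 0 CPM without Six2 (3.89, SE 0.46, adjusted p = 0.0024; 5.07). Members without Six2 were higher in Emx2, at 57.3 and 42.0 CPM against 3.32 and 5.98 CPM (-3.42, SE 0.36, adjusted p = 0.0012; -4.57), and in Osr2, at 82.1 and 61.2 CPM against 4.97 and 17.3 CPM (-2.78, SE 0.48, adjusted p = 0.0086; -3.42). Mki67, a marker of dividing cells, was at 262 and 92.7 CPM with and 64.0 and 19.1 CPM without Six2 (2.06, SE 0.32, adjusted p = 0.0054; 1.26). In each of these genes the libraries of the 2 sets did not overlap, and the last value in each bracket is the log2 fold change without the cells with other markers, all called. Robo2 did not pass with all members and did in that setting, at 733 and 868 CPM with and 364 and 400 CPM without Six2 (1.09, adjusted p = 1.7e-05). Tmem100, of the same cap list, was lower with Six2 in that setting, at 131 and 116 CPM with and 226 and 429.6 CPM without (-1.25, adjusted p = 0.01), and did not pass with all members (-0.41, SE 0.15, adjusted p = 0.13).

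Other genes did not pass the test of the Six2 split. Cdh6 stood at 218 and 211 CPM with and 202 and 306 CPM without Six2 (-0.13, SE 0.27, adjusted p = 0.83). Lef1 stood at 18.7 and 17.3 CPM with and 13.4 and 11.5 CPM without (0.59, SE 0.28, adjusted p = 0.29), and Notum at 24.0 and 16.7 CPM with and 14.3 and 7.64 CPM without (0.97, SE 0.42, adjusted p = 0.18). Bmper was higher with Six2, at 559 and 677 CPM against 281 and 183 CPM (1.43, SE 0.27, adjusted p = 0.012), and lost the call without the cells with other markers (0.62, adjusted p = 0.23). Pax2 behaved likewise, at 1201 and 1251 CPM against 856 and 627 CPM (0.82, SE 0.15, adjusted p = 0.0096), and 0.41 with an adjusted p of 0.058 in that setting. A p over the threshold does not show that levels were equal.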

How the data were processed

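Each library is a matrix of raw UMI counts over all barcodes, as the authors deposited it. Per the file headers Cell Ranger 4 wrote it; the submitters' processing notes give Cell Ranger 6.0.1 and mm10, and this difference was not settled. Coordinates are those of GENCODE M21, where 32158 of 32285 gene identifiers were found. Cells were chosen as the report gives, and their counts were summed per library and population.

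The 6 sums (8 for the Six2 split) were fitted in R 4.3.3 with edgeR 4.0.16, which calls limma 3.58.1. The fit took TMM factors, its default filter on low counts, the library as a block and two-sided quasi-likelihood tests, Benjamini-Hochberg adjusted over all tested genes at 0.05. The block pairs populations taken from 1 library. Rule genes, and Six2 in its split, were left out. The fit was tested on simulated data. DESeq2 1.42.0, Scrublet in scanpy 1.11.5 and other thresholds served as alternatives. Python 3.11.15, numpy 2.4.6, scipy 1.17.1, pandas 2.3.3 and matplotlib 3.10.9 were used.

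Named genes were, per comparison, the 10 highest and 10 lowest log2 fold changes among called genes of 1 sign in both libraries and at least 20 CPM where higher, and up to 4 called genes per list; others named were chosen after their values were seen, and some results are not reported here. Members, lists and tests were chosen with earlier results of these data known.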

Additional observations from a re-analysis of the deposited data

How the results depend on the processing

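Against uncommitted cells, DESeq2 gave 837 calls (557 higher, 280 lower), the fit with no replicate block 409 lower, and barcodes of 10000 to 50000 UMIs 673 higher. Against vesicle cells DESeq2 gave 1303 (608 higher, 695 lower). For the Six2 split, no filter gave 2257 (999 higher), no replicate block 211 higher, 10000 to 50000 UMIs 442 (166 and 276), a Wnt4 minimum of 3 UMIs 742 (210 and 532), and leaving out cells with other markers 59 (13 and 46). The fits with no replicate block called 1143, 1899 and 895 genes. The cause of these moves was not tested. In the Six2 split 5 log2 fold changes went from negative to positive without the cells with other markers. These were Pou3f3 (4.14), Hes1 (0.00243), Maml2 (0.231), Cldn3 (2.18) and Junb (1.06), and none of them was called in that setting. The mean share of members with a UMI moved from 21.5% to 71.0% for Six2, 68.0% to 85.9% for Bmper and 37.6% to 75.7% for Cdh6 without thinning; Pax2 went from 85.7% to 98.9%, or 96.9% at 5000 UMIs, and Pax8 from 20.7% to 54.0%, or 27.7%. The mean share of members was 2.23%, and 1.59% to 2.88% with 1 library left out. With 1 library no residual degrees of freedom remain, so leaving out either gives no test. The 67 cells of library 2 limit rare transcripts.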
